A study of Mus musculus with 2 samples.

Results

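The measurements concern 8 genes of glucocorticoid signalling in mouse brain nuclei: *Nr3c1* and *Nr3c2*, which encode the glucocorticoid and mineralocorticoid receptors, and *Fkbp5*, *Zbtb16*, *Tsc22d3*, *Hif3a*, *Sgk1* and *Klf9*, textbook targets of the glucocorticoid receptor. They were taken by symbol from the 32285 genes of the count tables, and each symbol stood on 1 row. The choice was made with their levels in these libraries known, so every difference between the libraries is given as a description, without a test. Target status is background knowledge. Receptor binding, receptor protein and circulating corticosterone were not measured in the files.

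The nuclei came from male mice, 6 to 8 weeks old by the labels, with or without subarachnoid haemorrhage (SAH), bleeding into the space around the brain. The text of the study names the strain C57BL/6J and gives an older age range, and which age holds is not settled. Haemorrhage was produced by perforating an artery at the base of the brain with a filament, and the sequenced tissue was taken 12 h later. The other group is labelled Normal. The text of the study calls its control mice sham-operated, and whether the Normal mice had the operation is not settled. By the labels the ipsilateral hemisphere, the side of the haemorrhage in SAH mice, was cut from 2.34 mm in front of bregma to 2.18 mm behind it, the tissue of 3 mice per group was pooled, and nuclei were sequenced as 1 library per group.

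With 1 library per group there is no replicate spread. Animal pool, anaesthesia, operation, library and haemorrhage cannot be told apart, and each interval below covers counting error only. The Normal library held 12204 nuclei and 114970719 UMIs (unique molecular identifiers, each standing for 1 captured RNA molecule), with a median of 7252.5 per nucleus, and the SAH library held 18209 nuclei and 172604358 UMIs, with a median of 8151. The SAH library was the larger in the files, whereas the text of the study states more nuclei for its control. After filtering and removal of likely doublets, 10955 Normal and 15536 SAH nuclei remained, and 78 barcodes occurred in both libraries.

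Corticosterone, the main glucocorticoid of mice, is released from the adrenal gland in daily rhythm and under stress, and binds both receptors inside the cell. The receptors wait in the cytoplasm with heat shock protein 90 and its partner proteins, enter the nucleus with hormone, and bind DNA at paired half-sites called glucocorticoid response elements. The mineralocorticoid receptor binds corticosterone more tightly than the glucocorticoid receptor and is known for its high expression in hippocampal neurons, whereas the glucocorticoid receptor is found in most brain cells and responds mainly at stress levels of hormone.

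Nuclei were clustered without the 8 genes and named by marker genes, which gave 17 classes. Of these, 5 were not neuronal: oligodendrocyte-like nuclei (1737 Normal and 3567 SAH, 15.9% and 23.0% of the nuclei kept), oligodendrocyte precursor-like nuclei (37 and 38), microglia-like nuclei (654 and 845), a cluster led by the macrophage gene *Mrc1* (367 and 476), and vascular and leptomeningeal-like nuclei (50 and 49). The other 12 classes were neuronal: 7 excitatory and 5 inhibitory. No class carried enough astrocyte markers to be called astrocyte-like. Clusters that met no name made up 2.85% of the Normal and 1.95% of the SAH nuclei. The *Mrc1* cluster is called by its leading gene, since it carried markers of microglia and of border macrophages together.

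Levels are UMIs of a gene as counts-per-million of all UMIs of the class (CPM), with an exact Poisson 95% interval. A difference is the log2 ratio of the SAH over the Normal level, with an exact binomial 95% interval in brackets. A ratio was read only where a gene had at least 50 UMIs over both libraries in the class, and a gene was counted as higher or lower at a ratio of 2-fold or more. Counts of intervals above or below 0 are given without the same count over all genes, so they have no background to be read against. Depth differed between classes and libraries (median 1886 and 2197 UMIs in oligodendrocyte-like nuclei, 11250 and 13697 in upper layer cortical-like nuclei), so shares of nuclei with a UMI are given after thinning to 1000 UMIs, unless stated. Nuclei with fewer than 1000 UMIs were left out of thinned values. This kept 1588 of 1737 Normal and 3411 of 3567 SAH oligodendrocyte-like nuclei. The *Mrc1* cluster had a Normal median of 924 UMIs, so most of its Normal nuclei were left out. Thinned ratios rest on fewer UMIs and are given without an interval. Intronic reads were counted, so long genes gather more UMIs than short ones, and levels are compared between classes and libraries, never between genes.

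By the GENCODE annotation of GRCm38, *Nr3c2* (ENSMUSG00000031618) lies on chromosome 8 from 76899442 to 77245012 on the plus strand. *Fkbp5* (ENSMUSG00000024222) spans chromosome 17 from 28399094 to 28517527, *Zbtb16* (ENSMUSG00000066687) chromosome 9 from 48654297 to 48836222, *Tsc22d3* (ENSMUSG00000031431) chromosome X from 140539528 to 140600659, and *Hif3a* (ENSMUSG00000004328) chromosome 7 from 17031507 to 17062427, all on the minus strand. *Sgk1* (ENSMUSG00000019970) spans chromosome 10 from 21882184 to 21999903, and *Klf9* (ENSMUSG00000033863) chromosome 19 from 23141226 to 23168134, both on the plus strand. Other annotated genes overlap *Nr3c2*, *Fkbp5*, *Hif3a* and *Klf9*. Reads in the shared bases could have been dropped or counted for the neighbour, and the sources used here do not say whether strand was used in counting.

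The bases before the start sites are shown for the targets because the receptor acts on its targets through DNA. RefSeq promoter windows of GRCm38.p6 were held for 6 of the 8 genes, 13 windows in all, since *Sgk1* and *Tsc22d3* have several start sites. *Nr3c1* and *Zbtb16* had no entry. In the 250 bases before each start, 3 patterns were searched on both strands: the full palindrome (AGAACA, any 3 bases, TGTTCT), a looser form (GNACA, any 3 bases, TGTNC) and the half-site TGTTCT, where N is any base and each shorter pattern can lie within a longer one. The full palindrome was found in 3 of 32817 windows of all genes (0.00914%), the looser form in 127 (0.387%) and the half-site in 5277 (16.1%). Among the windows of the 8 genes, the full palindrome occurred only before 1 of the *Sgk1* starts, from 189 to 175 bases before it (chr10:21993701-21993715). The *Sgk1* window (chr10:21993640-21993889, plus strand), the *Tsc22d3* window with a half-site 185 to 180 bases before its start (chrX:140600523-140600772, minus strand) and the *Fkbp5* window without a match (chr17:28486150-28486399, minus strand) read as follows, 5′ to 3′, with the matched bases in capitals.
Sgk1: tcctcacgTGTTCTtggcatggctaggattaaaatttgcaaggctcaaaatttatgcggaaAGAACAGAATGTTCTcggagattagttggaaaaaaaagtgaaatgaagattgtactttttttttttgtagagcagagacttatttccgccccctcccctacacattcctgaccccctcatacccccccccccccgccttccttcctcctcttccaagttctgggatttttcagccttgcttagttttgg
Tsc22d3: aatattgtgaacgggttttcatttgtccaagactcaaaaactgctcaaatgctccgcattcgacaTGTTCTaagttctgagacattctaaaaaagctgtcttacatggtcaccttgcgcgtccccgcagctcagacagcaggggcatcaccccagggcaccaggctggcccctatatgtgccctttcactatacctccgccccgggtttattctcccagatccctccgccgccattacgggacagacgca
Fkbp5: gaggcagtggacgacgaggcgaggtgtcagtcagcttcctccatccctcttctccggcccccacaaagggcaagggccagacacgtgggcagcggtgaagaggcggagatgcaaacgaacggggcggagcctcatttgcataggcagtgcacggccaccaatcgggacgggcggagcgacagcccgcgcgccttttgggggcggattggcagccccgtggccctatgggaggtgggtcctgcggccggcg
A match describes these letters and is not a measured binding site, and a window without one says nothing of sites elsewhere in the gene.

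*Nr3c1*, the glucocorticoid receptor gene (ENSMUSG00000024431, chromosome 18 from 39410545 to 39519421 on the minus strand), was detected in every class, and its level differed little between the libraries. Over all nuclei kept its level was 138 CPM in Normal and 140.3 CPM in SAH (0.03 [-0.00, 0.06]). In the Normal library it was highest in microglia-like nuclei, at 325 CPM [292, 359.6], and lowest in subcortical GABA-like nuclei, at 62.7 CPM [58.3, 67.4]. The *Mrc1* cluster (274 CPM), layer 6 corticothalamic-like nuclei (252 CPM), vascular nuclei (243 CPM) and thalamic relay-like nuclei (223 CPM) followed, with intervals that overlapped from each to the next. Of the 16 pairs of neighbours in this order, 3 had intervals apart in Normal and 3 in SAH.

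Among the excitatory classes the hippocampal ones held the least *Nr3c1* in both libraries, and the SAH level there was the lower. Hippocampal pyramidal-like nuclei held 92.4 CPM in Normal and 65.5 CPM in SAH (-0.50 [-0.69, -0.30]), and dentate granule-like nuclei 106 and 75.5 CPM (-0.49 [-0.82, -0.16]). Thinned, the pyramidal-like ratio was -0.15. Both hippocampal clusters were called pyramidal-like, and their *Nr3c1* ratios had opposite signs. The cluster with *Gm2115* among its leading genes went from 147 to 87.3 CPM (-0.76 [-0.99, -0.52]), whereas the cluster led by *Ccbe1* went from 33.0 to 46.3 CPM (0.49 [0.08, 0.90]). Upper layer cortical-like nuclei also had the lower level in SAH (190.4 and 142 CPM, -0.43 [-0.52, -0.33]), although the ratio was 0.02 when nuclei were thinned, while in middle layer cortical-like nuclei the interval lay across 0 (169 and 175 CPM, 0.05 [-0.05, 0.15]). Oligodendrocyte-like nuclei held 167 CPM in Normal and 210 CPM in SAH (0.34 [0.21, 0.47]), and microglia-like nuclei 325 and 313 CPM (-0.05 [-0.26, 0.15]). In none of the 16 classes read did *Nr3c1* differ 2-fold. The interval of its ratio lay above 0 in 1 class, below 0 in 5 and across 0 in 10, without a like count over all genes.

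*Nr3c2*, the mineralocorticoid receptor gene, had another layout, with the hippocampus on top. In Normal, hippocampal pyramidal-like nuclei held 1357 CPM [1325, 1390] and dentate granule-like nuclei 1057 CPM [1001, 1115], against 61.7 CPM [55.5, 68.4] in layer 6 corticothalamic-like nuclei. Between these ends the order ran through vascular nuclei (703 CPM), *Adarb2* interneuron-like nuclei (547 CPM) and striatal projection-like nuclei (440 CPM), and 9 of 16 neighbouring pairs had intervals apart. After thinning, 69.2% of hippocampal pyramidal-like nuclei held an *Nr3c2* UMI in Normal and 61.7% in SAH. The share in oligodendrocyte-like nuclei was 10.0% and 15.4%.

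In SAH, *Nr3c2* was lower in the hippocampal classes, where it had been highest, and higher in the cortical classes and in several others. The ratio was -0.23 [-0.28, -0.18] in hippocampal pyramidal-like nuclei and -0.25 [-0.35, -0.16] in dentate granule-like nuclei, whose SAH levels, 1157 and 886 CPM, still led all classes. With nuclei named one by one, which left 37 Normal and 30 SAH dentate nuclei, the dentate ratio of *Nr3c2* was 0.04. Middle layer cortical-like nuclei went from 76.9 to 175 CPM (1.19 [1.05, 1.32]), the only class in which a receptor gene was 2-fold higher. In that class 6.81% of all genes were 2-fold or more higher. The ratio was 1.16, 0.95 and 1.01 in the 3 clusters of the class, the third of which held 5 Normal and 66 SAH nuclei. The class ratio was 0.83 with doublets kept and 0.95 with nuclei named one by one, which left 73 Normal and 60 SAH nuclei. Layer 6 corticothalamic-like nuclei went from 61.7 to 102 CPM (0.72 [0.55, 0.90]), and upper layer cortical-like nuclei from 195 to 262 CPM (0.43 [0.35, 0.52]). The layer 6 ratio was 0.21 with nuclei named one by one (180 Normal and 245 SAH nuclei) and 1.08 when thinned. Outside the cortical-like classes, oligodendrocyte-like nuclei, whose place in the tissue is not known, went from 109 to 181 CPM (0.74). Thalamic relay-like nuclei went from 189 to 252 CPM, and subcortical GABA-like nuclei from 301 to 378 CPM. Of the 16 classes read, the interval lay above 0 in 10 and below 0 in 5, the latter being the hippocampal pyramidal-like, dentate granule-like and striatal projection-like nuclei, the *Mrc1* cluster and the vascular nuclei. Over the 16 classes, 2.56% to 12.4% of all genes were 2-fold or more higher. That share is no background for the counts of intervals, which have none here.

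**Figure D1:**
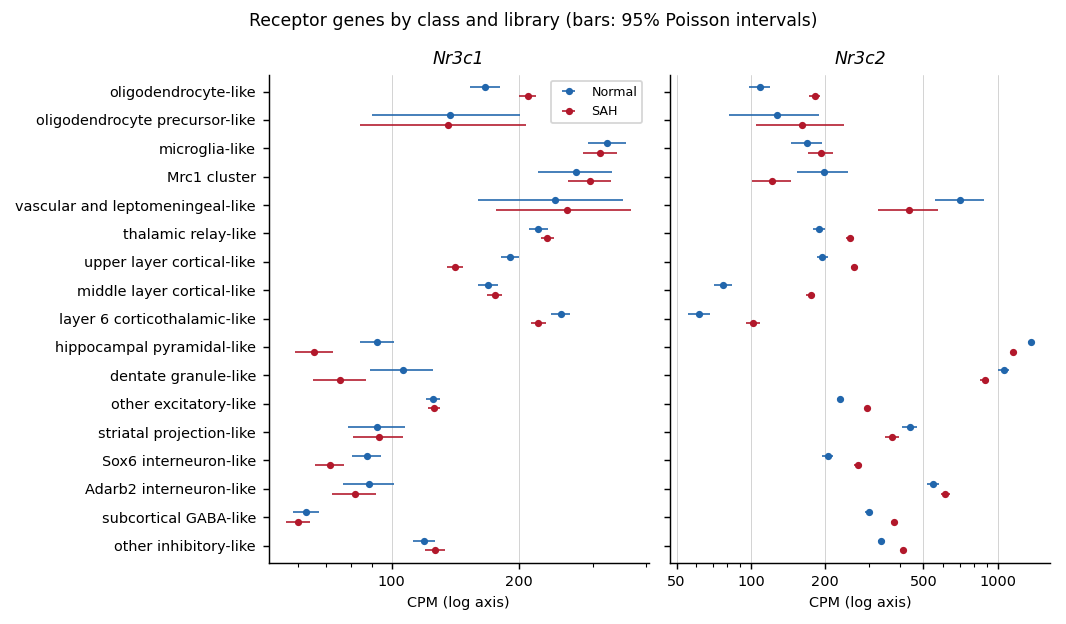
Levels of *Nr3c1* (left) and *Nr3c2* (right) in CPM on a log axis for each class of nuclei, with the Normal library in blue and the SAH library in red; bars are 95% Poisson intervals. *Nr3c1* was highest in microglia-like nuclei (325 and 313 CPM), and *Nr3c2* was highest in hippocampal pyramidal-like nuclei (1357 and 1157 CPM).

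Among the targets, *Fkbp5* encodes a partner of heat shock protein 90 that lowers the hormone affinity of the receptor, so that its induction closes a feedback loop. Over all nuclei kept it stood at 45.8 CPM in Normal and 138 CPM in SAH (1.59 [1.54, 1.63]). In oligodendrocyte-like nuclei it went from 60.4 CPM [52.7, 68.8] to 586 CPM [570.2, 603] (3.28 [3.09, 3.48]), from 224 and 5028 UMIs. In microglia-like nuclei it went from 304 to 1736 CPM (2.51 [2.35, 2.68]), and in the *Mrc1* cluster from 293 to 1554 CPM (2.41 [2.13, 2.71]). These are the classes with the largest *Fkbp5* ratios among the 16 read. The share of all *Fkbp5* UMIs that came from oligodendrocyte-like nuclei was 5.06% in Normal and 26.1% in SAH, and from microglia-like nuclei 7.75% and 13.3%.

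Shares of nuclei moved with the levels. After thinning, 5.23% of Normal and 43.0% of SAH oligodendrocyte-like nuclei held an *Fkbp5* UMI (9.90% and 66.5% unthinned), and 3 or more UMIs were held by 0.189% and 3.22%. In microglia-like nuclei the thinned shares were 21.4% and 76.4%, and 3 or more UMIs were held by 1.29% and 25.8%. Middle layer cortical-like nuclei, the class with the lowest *Fkbp5* level, had thinned shares of 1.04% and 3.53%.

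Neurons held *Fkbp5* at 13.6 to 117 CPM in Normal. It was 2-fold or more higher in SAH in 6 of 12 neuronal classes, among them middle layer (1.37), upper layer (1.32), thalamic relay-like (1.31) and layer 6 corticothalamic-like nuclei (1.24). After thinning, the thalamic ratio was 0.73 and the upper layer ratio 0.93, whereas the layer 6 ratio was 1.57. Thinning left 38 Normal and 107 SAH upper layer nuclei with an *Fkbp5* UMI. As a mean over nuclei, the thalamic, upper layer and layer 6 ratios were 1.37, 1.28 and 1.19. Too few UMIs were left in middle layer nuclei for a thinned ratio to be read. The class of other excitatory neurons, just inside the 2-fold limit at 1.01 [0.90, 1.12], came to 0.53 when thinned and 0.92 as a mean over nuclei. In 3 neuronal classes the interval lay across 0. Hippocampal pyramidal-like nuclei held 80.1 CPM in Normal and 72.9 CPM in SAH (-0.14 [-0.34, 0.06]), dentate granule-like nuclei 117 and 125 CPM (0.09 [-0.19, 0.38]), and *Adarb2* interneuron-like nuclei 33.5 and 41.9 CPM (0.32 [-0.09, 0.74]). The pyramidal-like and dentate classes were the neuronal classes with the highest *Fkbp5* level in Normal and the highest *Nr3c2*. With nuclei named one by one, which left 37 Normal and 30 SAH dentate nuclei, the dentate ratio was 1.01. Within the pyramidal-like class, the *Gm2115* cluster had a ratio of 0.13 [-0.15, 0.41] and the *Ccbe1* cluster -0.42 [-0.71, -0.12]. Interneurons differed by cluster too: among *Sox6* interneuron-like nuclei, the cluster led by *Eya4* and *Pde5a* went from 29 to 153 UMIs (2.03 [1.45, 2.65]), and the cluster led by *Sst*, the somatostatin gene, from 91 to 175 UMIs (0.70 [0.32, 1.08]). Of 36 clusters with enough UMIs, *Fkbp5* was 2-fold or more higher in 18, and its interval lay above 0 in 27, below 0 in 1 and across 0 in 7. The oligodendrocyte-like cluster without Normal nuclei had no ratio. Shares of all genes were not set beside these cluster counts, which describe *Fkbp5* only.

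*Zbtb16* encodes PLZF, a zinc finger repressor of transcription. In Normal it was highest in *Adarb2* interneuron-like nuclei (306 CPM), dentate granule-like nuclei (244 CPM) and hippocampal pyramidal-like nuclei (191 CPM). Vascular nuclei (153 CPM) and oligodendrocyte-like nuclei (114 CPM) came next, above the other neuronal classes. The lowest levels were in striatal projection-like nuclei, at 8.51 CPM, and in microglia-like nuclei, at 9.76 CPM [4.87, 17.4] from 11 UMIs. The microglia-like level after SAH was 174 CPM [154, 197] from 257 UMIs (4.16 [3.30, 5.18]). This was 3.23 when doublets were kept. The *Mrc1* cluster went from 21.9 to 226 CPM (3.37 [2.37, 4.60]), and oligodendrocyte-like nuclei from 114 to 528 CPM (2.21 [2.07, 2.36]), which put them first among the classes in SAH. The thinned share of nuclei with a UMI went from 0.804% to 14.2% in microglia-like and from 11.5% to 38.2% in oligodendrocyte-like nuclei. Among neurons, several classes with a low Normal level had a ratio past 2-fold. Thalamic relay-like nuclei went from 21.1 to 57.7 CPM (1.45), and other inhibitory nuclei from 31.7 to 78.7 CPM (1.31), which was 0.64 with nuclei named one by one. *Adarb2* interneuron-like nuclei went from 306 to 395 CPM (0.37 [0.23, 0.50]), and hippocampal pyramidal-like nuclei from 191 to 181 CPM (-0.07 [-0.20, 0.05]). Single clusters moved further than their class: the ratio was 2.30 [1.79, 2.85] in the thalamic cluster led by *Synpo2* and *Tcf7l2*, against 1.05 [0.73, 1.39] in the one led by *Abhd12b* and *Prkcd*.

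*Tsc22d3* encodes GILZ, a leucine zipper protein that binds inflammatory transcription factors and mediates part of the anti-inflammatory action of glucocorticoids. It was a gene of non-neuronal nuclei: the 12 neuronal classes held at most 3.87 CPM in Normal and 3.53 CPM in SAH, and at most 0.880% of their thinned nuclei had a UMI. That level serves as background for the rest. Vascular nuclei led with 297 CPM [205, 418] in Normal and 235 CPM [156, 340] in SAH. Microglia-like nuclei went from 27.5 to 123 CPM (2.17 [1.61, 2.77]) and the *Mrc1* cluster from 35.6 to 116 CPM (1.70 [0.87, 2.65]), which was 0.88 when doublets were kept. Oligodendrocyte-like nuclei, which gave 69.3% of all *Tsc22d3* UMIs in Normal, went the other way, from 190.5 CPM [177, 205] to 145 CPM [137, 153] (-0.40 [-0.53, -0.26]). Their thinned share with a UMI was 16.6% and 12.4%. The ratio was below 0 in each of the 3 oligodendrocyte-like clusters found in both libraries, at -0.17 [-0.37, 0.04], -0.68 [-1.04, -0.32] and -0.39 [-0.61, -0.17].

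*Hif3a* encodes a hypoxia-inducible factor subunit, forms of which restrain its better known relatives. It was sparse, with 138 UMIs over all Normal nuclei kept and 1296 over all SAH nuclei kept, a ratio of 2.69 [2.44, 2.96]. Of the SAH UMIs, 78.4% came from oligodendrocyte-like nuclei, where the level went from 11.6 CPM [8.39, 15.6] to 118.5 CPM [111, 126] (3.35 [2.91, 3.83]). The thinned share with a UMI was 1.07% in Normal and 11.2% in SAH, beside at most 0.997% in any neuronal class. The *Mrc1* cluster had 0 UMIs in Normal and 30 in SAH, at least 3.64-fold higher when Normal is set at the 3 UMIs that a count of 0 allows. In microglia-like nuclei of SAH, 18 UMIs were found and 1.16% of thinned nuclei had one, close to the largest neuronal share. Their level was 0.887 CPM in Normal and 12.2 CPM in SAH, against at most 2.72 CPM in any neuronal class of SAH, with intervals apart. Precursor-like nuclei held 5.30 and 110 CPM and vascular nuclei 36.1 and 67.2 CPM. The precursor-like interval in SAH overlapped the oligodendrocyte-like one. None of these non-neuronal classes had enough UMIs for a ratio to be read.

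*Sgk1* encodes a kinase that regulates ion channels and transporters and is induced by serum and glucocorticoids. Its highest level was in oligodendrocyte-like nuclei in both libraries, 292 CPM [275, 310] in Normal and 502 CPM [487, 518] in SAH (0.78 [0.69, 0.88]). The interval overlapped that of the next class in each library, striatal projection-like nuclei in Normal (268 CPM) and oligodendrocyte precursor-like nuclei in SAH. Oligodendrocyte precursor-like nuclei went from 238 to 401 CPM (0.75 [0.17, 1.34]). The other 14 classes read lay between -0.33 [-0.46, -0.19] in layer 6 corticothalamic-like nuclei and 0.55 [0.17, 0.94] in dentate granule-like nuclei. Microglia-like nuclei held 86.9 CPM in Normal and 86.8 CPM in SAH (-0.00 [-0.39, 0.39]). *Sgk1* was not 2-fold higher in any of the 16 classes read.

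*Klf9* encodes a zinc finger transcription factor that glucocorticoids and thyroid hormone both induce. It went from 101 CPM [90.8, 112] to 244 CPM [234, 255] in oligodendrocyte-like nuclei (1.28 [1.12, 1.44]) and from 22.2 CPM [14.4, 32.7] to 64.4 CPM [52.1, 78.7] in microglia-like nuclei (1.54 [0.89, 2.24]). The *Mrc1* cluster, just outside the 2-fold limit, went from 38.3 to 68.8 CPM (0.84 [0.00, 1.79]). The 12 neuronal ratios lay between -0.29 and 0.23, and the interval lay below 0 in 2 classes and across 0 in 10.

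**Figure D2:**
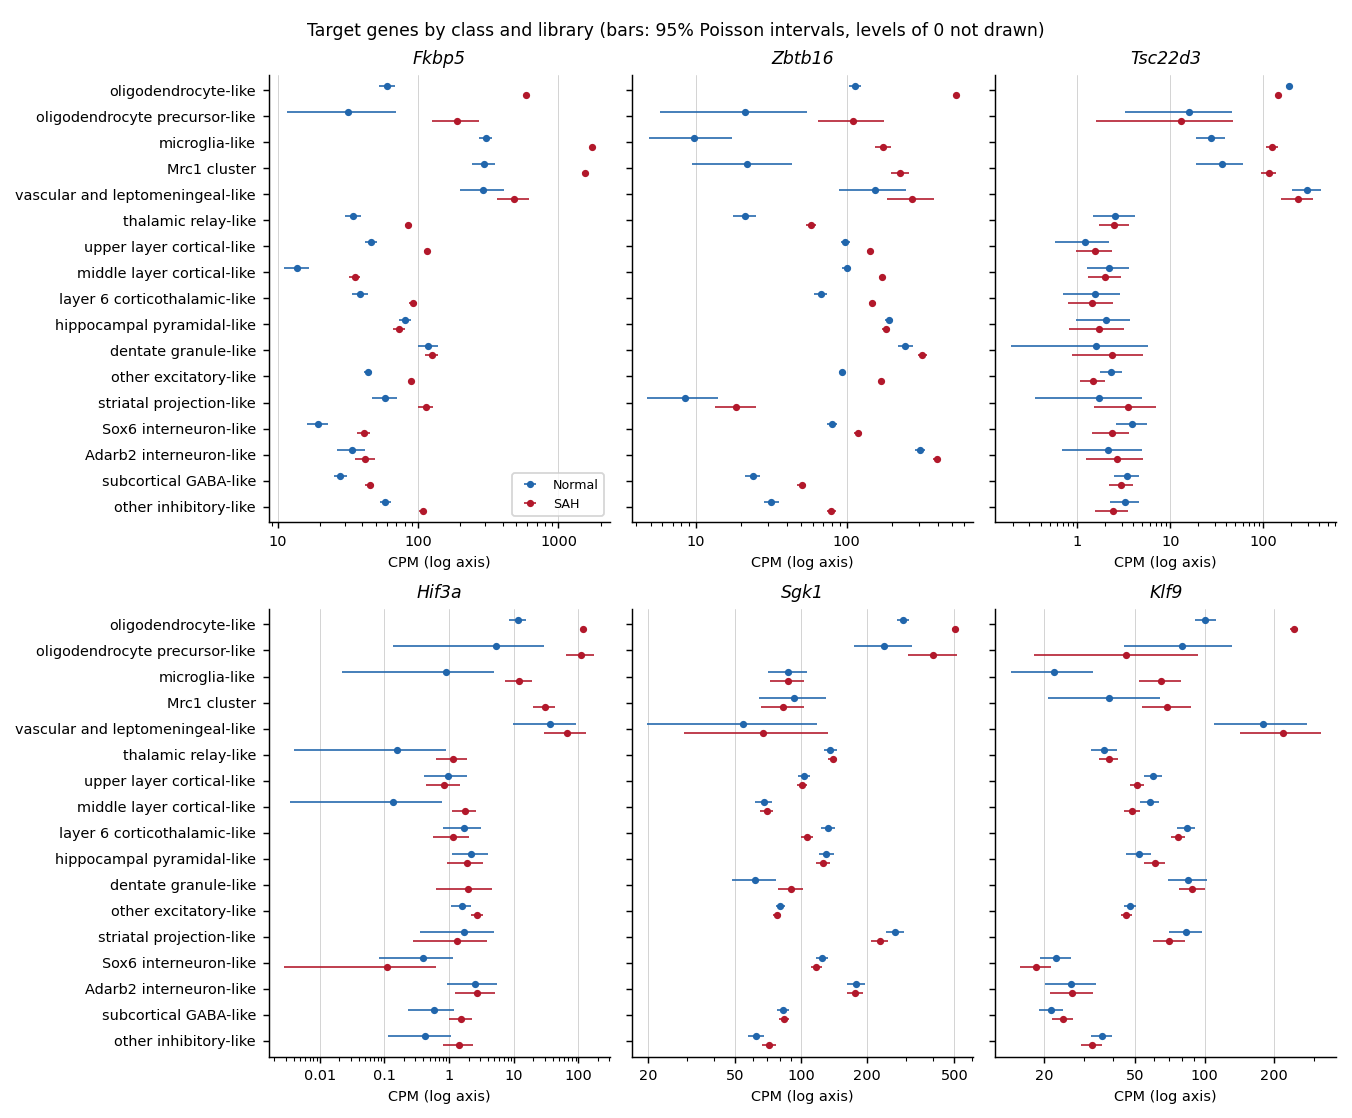
Levels of the 6 target genes in CPM on log axes for each class of nuclei, with the Normal library in blue and the SAH library in red; bars are 95% Poisson intervals, and levels of 0 are not drawn. *Fkbp5* stood at 586 CPM in SAH oligodendrocyte-like nuclei and 60.4 CPM in Normal ones, whereas its points nearly coincide in hippocampal pyramidal-like nuclei.

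Over the 136 pairs of a gene and a class, 104 had enough UMIs to be read. Of these, 23 were 2-fold or more higher in SAH, 0 were 2-fold or more lower, and 81 lay within 2-fold. Intervals lay above 0 in 49 pairs, below 0 in 16 and across 0 in 39, and no like count over all genes stands beside these. By gene, the pairs 2-fold higher were 9 of 16 for *Fkbp5*, 8 of 15 for *Zbtb16*, 2 of 8 for *Tsc22d3*, 2 of 15 for *Klf9*, 1 of 2 for *Hif3a*, 1 of 16 for *Nr3c2* and 0 of 16 for each of *Nr3c1* and *Sgk1*. Just inside the limit were *Fkbp5* in other excitatory nuclei (1.01) and *Zbtb16* in subcortical GABA-like nuclei (1.08). Just outside were *Fkbp5* in striatal projection-like nuclei (0.97) and in other inhibitory nuclei (0.88). Since these genes were picked from these contrasts, the counts describe the choice and are not evidence of a response. The median ratio over all genes lay between -0.09 and -0.19 in the 12 neuronal classes and between -0.05 and 0.13 in the others, and with each class centred on its median 26 pairs were 2-fold or more higher.

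By class, 4 of 6 targets read were 2-fold or more higher in oligodendrocyte-like nuclei, where 8.13% of 11403 genes were, and 4 of 5 in microglia-like nuclei, where 5.35% of 7558 genes were. The *Mrc1* cluster had 3 of 5, with 12.4% of all genes. Thalamic relay-like and layer 6 corticothalamic-like nuclei each had 2 of 4, *Fkbp5* and *Zbtb16*, with 4.83% and 4.8% of all genes. Hippocampal pyramidal-like, dentate granule-like and *Adarb2* interneuron-like nuclei had 0 of 4, with 5.65%, 4.5% and 2.56% of all genes 2-fold higher there. Upper layer cortical-like nuclei (6.09% of all genes) and other excitatory nuclei (5.64%) had only *Fkbp5* past the limit, as had *Sox6* interneuron-like nuclei (3.67%) and middle layer cortical-like nuclei among the targets. *Zbtb16* alone passed it in striatal projection-like (2.66%), subcortical GABA-like (4.83%) and other inhibitory nuclei (4.13%). The precursor-like (6.06%) and vascular (10.9%) classes had 1 and 2 targets read and 0 past it.

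No gene of the 8 was 2-fold or more lower in any class where it could be read. Of all genes, this was so for 5.89% in oligodendrocyte-like, 8.02% in precursor-like, 3.68% in microglia-like and 5.67% in vascular nuclei and 8.08% in the *Mrc1* cluster. Among excitatory classes it was so for 3.75% in thalamic relay-like, 6.58% in upper layer, 4.62% in middle layer and 5.49% in layer 6 nuclei, and for 6.42% in hippocampal pyramidal-like, 4.87% in dentate granule-like and 5.89% in other excitatory nuclei. Among inhibitory classes it was so for 5.64% in striatal projection-like, 5.4% in *Sox6*, 4.75% in *Adarb2*, 4.53% in subcortical GABA-like and 5.32% in other inhibitory nuclei.

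**Figure D3:**
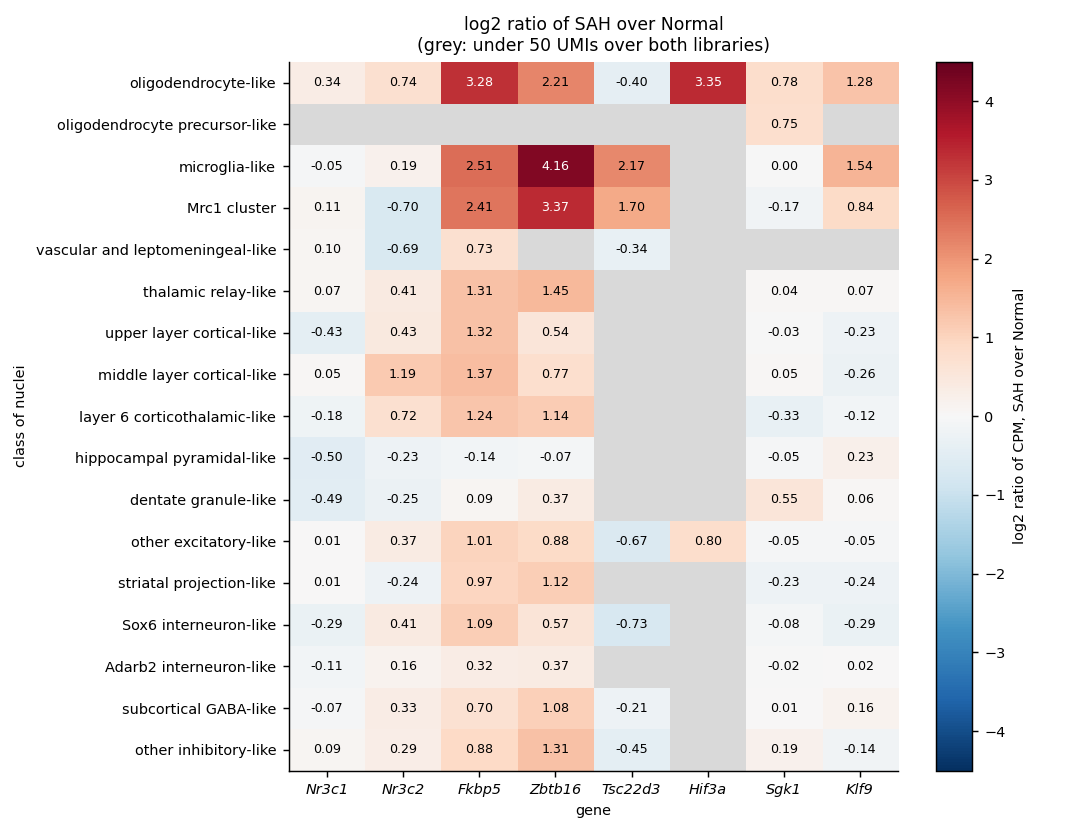
Log2 ratio of CPM in SAH over Normal for each gene (columns) and class (rows), on a colour scale symmetric about 0; grey cells had under 50 UMIs over both libraries. The 3 highest cells are *Zbtb16* in microglia-like nuclei (4.16) and in the *Mrc1* cluster (3.37) and *Hif3a* in oligodendrocyte-like nuclei (3.35), and the 2 receptor columns stay between -0.70 and 1.19.

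Oligodendrocyte-like nuclei, named for the cells that make myelin, had *Fkbp5*, *Zbtb16*, *Hif3a* and *Klf9* 2-fold or more higher in SAH. *Fkbp5* had ratios of 3.30 in the cluster led by *Apod* and *Anln*, 3.09 in the one led by *Ptgds* and *Il33* and 3.30 in the one led by *Opalin*, and *Klf9* had 1.23, 1.28 and 1.28. *Hif3a* lay between 2.80 [2.13, 3.55] in the *Apod* cluster and 3.96 [3.24, 4.78] in the *Opalin* cluster. A further cluster held 121 nuclei, all of the SAH library, with *Fkbp5* at 549 CPM and *Zbtb16* at 360 CPM. The 8 oligodendrocyte markers together were lower in SAH, 25138 and 15033 CPM (-0.74 [-0.75, -0.73]). Astrocyte markers (15.4 and 41.6 CPM) and border macrophage markers (1.62 and 10.1 CPM) were the higher there in SAH. The part of the marker shifts in the ratios of oligodendrocyte-like nuclei was not tested.

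Single nuclei showed how the targets spread over the class. After thinning, 49.1% of Normal oligodendrocyte-like nuclei had a UMI of none of the 6 targets, against 13.5% in SAH, and 2.20% against 16.0% had UMIs of 3. In SAH, *Zbtb16* was found in 39.7% [37.2, 42.2] of the nuclei with an *Fkbp5* UMI and in 37.0% [34.9, 39.2] of those without, and *Hif3a* in 11.6% and 10.9%. *Nr3c1* was found in 18.0% [16.1, 20.1] of the nuclei with and 17.7% [16.0, 19.5] of those without *Fkbp5*. The intervals of each pair of shares overlap, and a difference was not detectable at this depth. In Normal, *Sgk1* was found in 39.8% [29.2, 51.1] of the 83 nuclei with *Fkbp5* and in 22.4% [20.3, 24.6] of the 1505 without. It was the only gene set beside *Fkbp5* there whose intervals were apart. Those of *Zbtb16*, *Hif3a*, *Klf9*, *Tsc22d3*, *Nr3c1* and *Nr3c2* overlapped. In SAH the *Sgk1* shares were 41.9% [39.4, 44.5] with and 40.0% [37.8, 42.2] without *Fkbp5*, and these intervals overlapped. In upper layer cortical-like nuclei the share with none of the 6 targets was 73.2% in Normal and 66.1% in SAH.

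**Figure D4:**
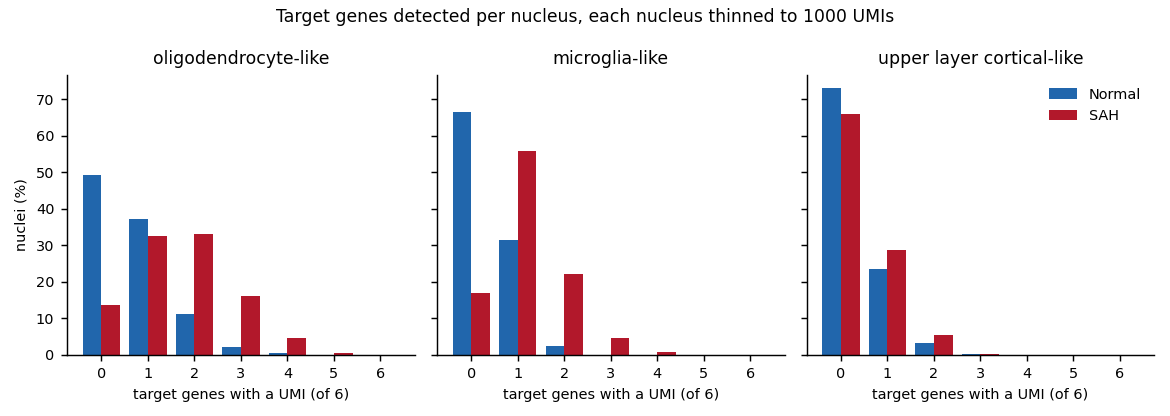
Share of nuclei (percent) by the number of target genes with a UMI, after thinning to 1000 UMIs, in oligodendrocyte-like, microglia-like and upper layer cortical-like nuclei; Normal is blue and SAH red. The bars at 0 targets stand at 49.1% (Normal) and 13.5% (SAH) in oligodendrocyte-like nuclei, 66.4% and 16.9% in microglia-like nuclei, and 73.2% and 66.1% in upper layer cortical-like nuclei.

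Microglia-like nuclei, named for the resident immune cells of the brain, had the highest *Nr3c1* and *Fkbp5* values of all classes in both libraries. Their intervals overlapped those of the *Mrc1* cluster and of the vascular nuclei for *Nr3c1* in both libraries and for *Fkbp5* in Normal. In microglia-like nuclei *Fkbp5*, *Zbtb16*, *Tsc22d3* and *Klf9* were 2-fold or more higher in SAH, and the intervals of *Sgk1*, *Nr3c1* and *Nr3c2* lay across 0. The 8 microglia markers went from 17773 to 11574 CPM (-0.62), and oligodendrocyte markers from 421 to 286 CPM, and the part of these shifts was not tested. The *Mrc1* cluster was shallower in Normal, at a median of 924 UMIs against 1924 in SAH, and its microglia markers went from 16318 to 7540 CPM (-1.11) and its border macrophage markers from 1141 to 1656 CPM (0.54). The part of these differences in its ratios was not tested. *Nr3c2* there went from 197 to 122 CPM (-0.70 [-1.13, -0.26]).

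The vascular and leptomeningeal-like class was small, at 50 and 49 nuclei, and carried 5 of 8 astrocyte markers beside 13 of 16 vascular ones. It held *Fkbp5* at 288 CPM [197, 407] in Normal and 479 CPM [363, 621] in SAH (0.73 [0.08, 1.40]) and *Nr3c2* at 703 and 437 CPM (-0.69 [-1.22, -0.16]). Its astrocyte markers went from 1902 to 1025 CPM, and their part in these ratios was not tested. Oligodendrocyte precursor-like nuclei had 6 *Fkbp5* UMIs in Normal and 29 in SAH, too few to be read. Oligodendrocyte markers in that class stood at 4710 CPM in Normal and 440.2 CPM in SAH.

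The layout of the receptors can be set beside the size of the *Fkbp5* ratio, class by class. Over 16 classes, the ratio had a Pearson correlation of 0.61 with the Normal *Nr3c1* level and -0.70 with the Normal *Nr3c2* level, both as log2(CPM + 1). For *Zbtb16* the values were 0.69 and -0.41 over 15 classes, for *Klf9* 0.48 and -0.14 over 15, for *Tsc22d3* 0.72 and -0.28 over 8, and for *Sgk1* -0.08 and -0.0085 over 16. The points come from the same 2 libraries, and the microglia-like nuclei, the *Mrc1* cluster and the oligodendrocyte-like nuclei, which set the upper end, also differ from neurons in depth, so the coefficients are a description only.

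**Figure D5:**
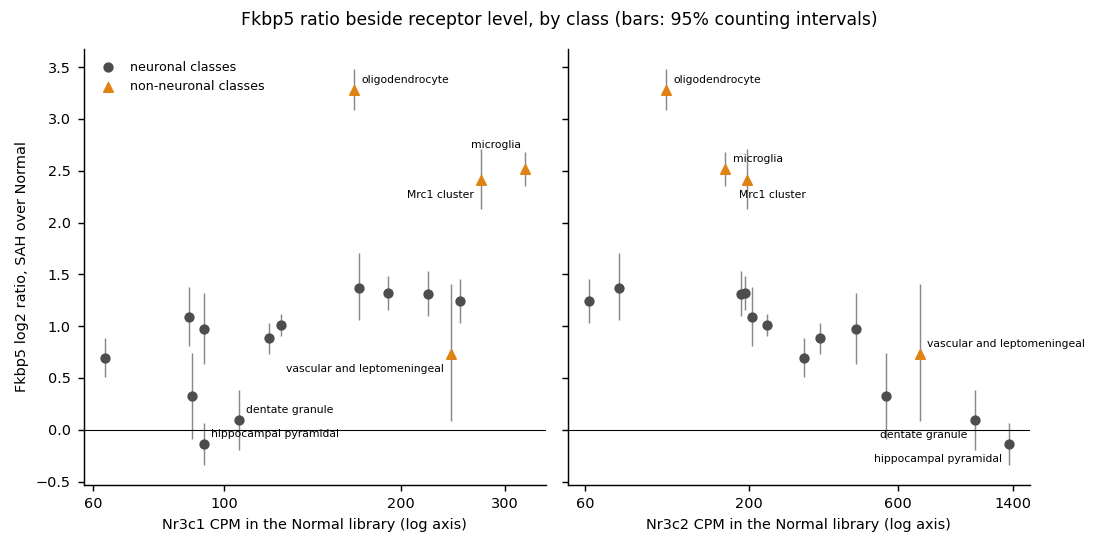
Log2 ratio of *Fkbp5* in SAH over Normal (vertical, bars are 95% counting intervals) against the Normal level of *Nr3c1* (left) and *Nr3c2* (right) in CPM on a log axis, with 1 point per class. Hippocampal pyramidal-like and dentate granule-like nuclei lie at the right end of the *Nr3c2* panel with *Fkbp5* ratios of -0.14 and 0.09.

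Other genes of the pathway were taken from lists written from general knowledge, with earlier results of these data known. Of 35 further glucocorticoid-response genes, 29 could be read in oligodendrocyte-like nuclei: 20 were 2-fold or more higher in SAH, 1 was 2-fold lower, and the median ratio was 1.39. Of the 20, *Lyve1* was also among the border macrophage markers. Over all genes of the class 8.13% were 2-fold or more higher and 5.89% lower, with a median of -0.05. The largest rises among well counted genes were *Cdkn1a*, an inhibitor of the cell cycle, from 10 to 621 UMIs (4.75 [3.86, 5.82]), *Fam107a*, an actin-binding protein (2.83 [2.10, 3.66]), and *Mertk*, a receptor kinase for engulfment (2.56 [1.85, 3.37]). *Rhob*, a small GTPase, went from 228 to 263 UMIs, or from 61.4 to 30.7 CPM. The rise of *Cdkn1a* was not confined to oligodendrocyte-like nuclei. In hippocampal pyramidal-like nuclei, where 0 of 4 targets were 2-fold or more higher, it went from 2 to 54 UMIs (4.52). In other excitatory nuclei, the remaining class where *Cdkn1a* could be read, it went from 50 to 37 UMIs (-0.83). In microglia-like nuclei 14 of the list could be read and 1 was 2-fold higher, the clock gene *Per1* (1.17), with a median of 0.09. Over all genes of that class 5.35% were 2-fold or more higher, a share close to that of the list, and the median was 0.03. Over the 15 classes with at least 5 genes of the list read, the median lay between -0.58 in striatal projection-like nuclei and 1.39, and the second highest was 0.43 in dentate granule-like nuclei.

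The chaperones that hold the receptors in a hormone-binding state had a median ratio below 0 in 13 of the 15 classes with at least 5 of them read. The sign alone does not set them apart. Over all genes the median was also below 0 in oligodendrocyte-like nuclei (-0.05) and in every neuronal class (-0.09 to -0.19). It was above 0 in microglia-like nuclei (0.03) and the *Mrc1* cluster (0.13). In oligodendrocyte-like nuclei all 13 chaperones could be read, 6 were 2-fold or more lower and 0 higher, beside 5.89% and 8.13% of all genes. Their median there was -0.92. *Hsp90ab1* and *Hsp90aa1*, the forms of heat shock protein 90, had ratios of -1.95 [-2.08, -1.82] and -1.21 [-1.33, -1.10], and *Stip1*, which links it to Hsp70, -1.48 [-1.81, -1.16]. The chaperone median was above 0 in hippocampal pyramidal-like nuclei (0.15) and dentate granule-like nuclei (0.04), where the median of all genes was -0.12 in each. The 15 coregulators were close to all genes, with a median of -0.03 in oligodendrocyte-like nuclei and 0 past 2-fold there. *Ncoa2*, a coactivator, was the highest (0.93 [0.83, 1.02]), *Crebbp*, another coactivator, stood at 0.16, and *Hdac3*, a histone deacetylase, was the lowest (-0.88 [-1.23, -0.53]), followed by *Ncoa3* (-0.28) and *Carm1* (-0.15). Of 5 steroid-handling genes, 2 could be read in oligodendrocyte-like nuclei, and *H6pd*, which supplies the cofactor for regenerating corticosterone, went from 3 to 62 UMIs (3.16 [1.55, 5.48]). The other, *Srd5a1*, a steroid reductase, went from 60 to 100 UMIs (-0.47 [-0.95, 0.02]).

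The genes with a layout most like those studied over the 17 classes of both libraries (34 points, Pearson correlation of log2(CPM + 1), 16550 candidates) were *Tspan14* for *Nr3c1* (0.85), *Nt5dc1* for *Fkbp5* (0.88), *Orc1* for *Zbtb16* (0.69), *Txndc16* for *Sgk1* (0.78) and *Efna1* for *Klf9* (0.77). For *Hif3a* it was *Cdkn1a* (0.86). For *Nr3c2* it was *Gm10649* (0.74), which overlaps it on the opposite strand. Within the 8, the highest correlations were between *Tsc22d3* and *Hif3a* (0.75) and between *Tsc22d3* and *Fkbp5* (0.71), and the 2 receptor genes were opposed (-0.56).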

How the data were processed

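Nuclei of pooled ipsilateral brain tissue from 3 mice per group were profiled with the 10x 3′ chemistry, 1 library for Normal and 1 for SAH. The authors aligned the reads to mm10 with intronic reads counted and deposited raw UMI count matrices. The submitters' processing notes name Cell Ranger 5.0.0, whereas the matrix headers name 6.1.2. The 8 genes, the other gene lists and the alternatives were chosen with earlier results of these data known.

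Nuclei with 300 to 7000 genes, under 100000 UMIs, under 10% mitochondrial and under 3% haemoglobin UMIs were kept. Limits removed 71 Normal and 29 SAH nuclei. Doublets were called with Scrublet (scanpy 1.11.5) at 0.8% per 1000 nuclei, in place of the caller the study used, and 1178 and 2644 nuclei were removed. The libraries were integrated by canonical correlation in Seurat 5.3.0 (R 4.3.3) on 2000 features, without 76 genes that included the 8, and clustered on 25 components at resolution 1.2. Clusters were named from marker lists. The naming rule, a score with margins and at least 3 markers, was settled with the clusters in view, and cell names may differ from those of the study.

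UMIs were summed per library and class (pandas 2.3.3 and numpy 2.4.6 under Python 3.11.15). Intervals (scipy 1.17.1) are exact at 95% (Poisson for levels, binomial for ratios and shares) and cover counting error only. The ratio intervals were run on simulated Poisson counts, the model they assume. Those counts hold no spread between nuclei, mice or libraries, so the run cannot speak to such spread. No test between groups was possible with 1 library per group, and no p-value is given. A gene at 0 UMIs was set at 3. The genes named from the lists were those with the largest ratios in each direction in oligodendrocyte-like nuclei, from genes of 200 UMIs or more, and genes most alike were ranked by Pearson correlation of log2(CPM + 1). *H6pd*, *Srd5a1*, *Per1* and the clusters singled out within a class were chosen after their values were seen.

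Alternatives were no removal of doublets, stricter limits (500 to 6000 genes, 5% mitochondrial UMIs), no integration, resolution 0.6, nuclei named one by one (at least 5 marker UMIs of 3 markers), centring on the class median or on the 500 genes nearest in length (lengths held for 99.6% of genes), thinning to 1000 UMIs, the mean over nuclei, UMI minimums of 20 and 200, and leaving out clusters with at least 90% of their nuclei from 1 library. Gene models came from GENCODE and promoter windows from RefSeq. Some results for other genes are not reported here.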

Additional observations from a re-analysis of the deposited data

Results flagged for a closer look

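Some genes had log2 ratios of SAH over Normal whose intervals lay above 0 in one class and below 0 in another. With 1 library per group, the difference was not tested for any of them. *Nr3c1* stood at 0.34 in oligodendrocyte-like and -0.50 in hippocampal pyramidal-like nuclei. *Nr3c2* stood at 1.19 in middle layer cortical-like nuclei and -0.70 in the *Mrc1* cluster. *Tsc22d3* stood at 2.17 in microglia-like and -0.67 in other excitatory nuclei, the latter from 52 and 43 UMIs and 0.29 with doublets kept. That neuronal level, 2.32 and 1.46 CPM, was within the background named above. In oligodendrocyte-like nuclei, at 190.5 and 145 CPM, the *Tsc22d3* ratio was -0.40. *Sgk1* stood at 0.78 in oligodendrocyte-like and -0.33 in layer 6 corticothalamic-like nuclei, and *Klf9* at 1.54 in microglia-like and -0.26 in middle layer cortical-like nuclei.

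*Zbtb16* was also seen in nuclei that no comparison used. A cluster that met no name, led by *Ndnf*, *Ebf2* and *Oxt*, held 10 *Zbtb16* UMIs in 172 Normal nuclei and 46 in 217 SAH nuclei, a log2 ratio of 1.48.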

How the results depend on the processing

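Of the 23 pairs of a gene and a class that were 2-fold or more higher in SAH, every pair that could be read kept its sign under each alternative. Of those read, 18 of 22 remained 2-fold or more higher with doublets kept, 19 of 20 without integration and at resolution 0.6, 13 of 16 with nuclei named one by one, 17 of 20 thinned, 22 of 23 centred on genes of like length and as a mean over nuclei, and every one read under the other alternatives. Counting pairs gained as well, the total was 25 with doublets kept, 23 under stricter limits, 20 without integration, 19 at resolution 0.6, 18 with nuclei named one by one, 26 centred on the class median, 23 centred on genes of like length, 20 thinned, 22 as a mean over nuclei, 23 without clusters of 1 library, 28 at a minimum of 20 UMIs and 20 at 200. It was 23 without the oligodendrocyte-like cluster led by *Ptgds* and *Il33*, an alternative chosen after seeing the data. The count of pairs 2-fold or more lower was 0, and was 1 with doublets kept (*Nr3c2* in the *Mrc1* cluster, -1.40). It was 1 with nuclei named one by one (*Nr3c1* in striatal projection-like nuclei, -2.78, from 54 Normal and 44 SAH nuclei). As a mean over nuclei it was 1 (*Tsc22d3* in other excitatory nuclei, -1.16, but 0.29 with doublets kept). The cause was not tested. With doublets kept, *Zbtb16* came to 0.99 in layer 6 corticothalamic-like and 0.94 in striatal projection-like nuclei, and *Klf9* and *Sgk1* in the *Mrc1* cluster to 2.41 and 1.53. No paired analysis was possible because each group has 1 library. At the 50-UMI minimum, *Hif3a* could be read in 2 of 17 classes.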
